A study of Sus scrofa with 16 samples.

Results

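The NR4A orphan nuclear receptors NR4A1 (Nur77), NR4A2 (Nurr1) and NR4A3 (NOR-1) were examined in the pituitary of Puławska gilts. The genes were taken by name as the whole family, and they were 3 of the 25880 genes in the count table. Pituitary RNA was sequenced from 16 female pigs of the Puławska breed, 8 of low feed conversion (LFC, replicates 1 to 8), needing little feed for their gain in weight, and 8 of high feed conversion that needed more (HFC, replicates 9 to 16). All animals were labelled as 3 months old, although by the methods of the study the feeding test ended at a later age. No genotype or treatment is given for either group, and each library came from a separate gilt. Whole glands were homogenised, so that anterior, intermediate and posterior lobe cells were read together, and fewer cells of a type cannot be told apart from less RNA per cell.

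NR4A receptors bind DNA without a known hormone ligand, and their activity follows mainly from how much of them is made. They are immediate early genes: their transcription starts within minutes of a stimulus, largely through cAMP, CREB and calcium signals, without new protein being made. In corticotrophs, the cells that make the ACTH precursor POMC, corticotropin-releasing hormone induces NR4A receptors, which bind the Nur response element of the POMC promoter. NR4A1 and NR4A2 can pair with the retinoid X receptors RXRA and RXRG, whereas NR4A3 is not known to do so.

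Each library held between 10.973 and 23.06 M counts in total, averaging 18.4 ± 3.36 M for the 8 LFC libraries (± SD) and 15.2 ± 3.24 M for the 8 of HFC (exact permutation test, two-sided p = 0.0688). Pituitary hormone transcripts were abundant in every library, with POMC at 5926 CPM (counts per M counts after scaling between libraries) or more and PRL at 276 CPM or more. On the first principal component of all genes LFC replicate 5, HFC replicate 13 and HFC replicate 14 stood apart from the other libraries, and on the second HFC replicate 16. POMC took 22.0% of the counts of HFC replicate 16 and at most 6.52% of those of any other library. The edgeR quasi-likelihood test called 0 of 14319 genes (0%) between the groups at an adjusted p of at most 0.05 and a fold of at least 1.3. At an unadjusted p under 0.05 it found 834 genes (5.82%), 219 of them lower in HFC (1.53%) and 615 higher (4.29%), and DESeq2 called 20 of 19572 genes (0.102%).

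All 3 receptors were expressed and passed the filter on low counts, and all 3 had lower mean values in HFC. None was called after adjustment over all genes. At the unadjusted threshold NR4A2 and NR4A3 were among the 219 genes lower in HFC and NR4A1 was not. The study itself named all 3 receptors among its differential genes from these same libraries, so the values below are not independent evidence that they differ. Here DESeq2, the tool of the study, did not call them either. The DESeq2 adjusted p was 0.999 for NR4A1, 0.580 for NR4A2 and 0.332 for NR4A3.

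NR4A1 (ENSSSCG00000031321), the family member best known in the stimulated corticotroph, lies on chr5:17399324-17411053 of Sscrofa11.1. The deposited annotation gives it as protein-coding, whereas the RefSeq annotation of the same assembly lists NR4A1 as a pseudogene at chr5:17403088-17407918. In LFC its level ran from 41.0 CPM through a median of 66.9 to 511 CPM, and in HFC from 29.8 CPM through a median of 60.0 to 148 CPM. The value of 511 CPM, from 11611 counts, belonged to LFC replicate 7 alone. The other LFC libraries lay within the range spanned by HFC, and the lowest 3 libraries of all, replicates 9, 12 and 13, were HFC. The means were 125 ± 159 CPM in LFC (SD, n = 8) and 67.9 ± 42.0 CPM in HFC (SD, n = 8). The log2 fold change, HFC against LFC, was -0.88 (SE 0.53; edgeR adjusted p = 0.957), and the difference in mean log2 CPM was -0.52 (exact permutation test, two-sided p = 0.352). Without LFC replicate 7 the LFC mean was 69.7 ± 31.6 CPM, the edgeR log2 fold change -0.04 and the difference in mean log2 CPM -0.15 (exact permutation p = 0.700). The lower NR4A1 mean of HFC therefore rested on 1 library.

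NR4A2 (ENSSSCG00000015871), known also for its part in dopamine neurons, lies on chr15:63485314-63505728. Its level ran from 23.03 CPM through a median of 33.6 to 60.3 CPM in LFC, and from 15.2 CPM through a median of 20.6 to 44.1 CPM in HFC. The groups overlapped: 6 of the 8 HFC libraries lay below every LFC library, whereas HFC replicates 15 and 16 lay among the LFC values. The 3 highest libraries were LFC replicates 8, 7 and 6, followed by HFC replicate 15. The mean was 37.2 ± 13.8 CPM in LFC (SD, n = 8) and 24.4 ± 9.50 CPM in HFC (SD, n = 8), a 1.52-fold lower level in the fit (log2 fold change -0.61, SE 0.25, unadjusted p = 0.0244, edgeR adjusted p = 0.753). On mean log2 CPM the groups differed by -0.60 (exact permutation test, two-sided p = 0.0361), and the LFC mean exceeded 7 of the 8 HFC libraries. That test passed 0.05 in only 6 of the 16 sets of 15 libraries, and its p reached 0.0706 without LFC replicate 8, where the difference was -0.49.

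NR4A3 (ENSSSCG00000005385), which shares the DNA element of its relatives, lies on chr1:241569830-241613629. It was read with 9 to 358 counts per library, the 9 counts being those of the shallowest library, HFC replicate 14. In LFC the level ran from 2.76 CPM through a median of 4.90 to 15.8 CPM, and in HFC from 0.922 CPM through a median of 2.08 to 6.41 CPM. The order of the libraries resembled that of NR4A2: LFC replicates 7, 8 and 6 were highest, HFC replicate 15 came next and HFC replicate 14 was lowest. Of the 8 HFC libraries 5 lay below every LFC library, and 3 LFC libraries lay above every HFC library. The mean was 6.59 ± 4.60 CPM in LFC (SD, n = 8) and 2.76 ± 1.88 CPM in HFC (SD, n = 8), a 2.38-fold lower level in the fit (log2 fold change -1.25, SE 0.45, unadjusted p = 0.0120, edgeR adjusted p = 0.654). The difference in mean log2 CPM was -1.20 (exact permutation test, two-sided p = 0.0204). It kept p under 0.05 in each of the 16 sets of 15 libraries, with exact permutation p between 0.00715 and 0.0413. The difference was largest when HFC replicate 15 was dropped (-1.40) and smallest when LFC replicate 7 was dropped (-0.98).

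**Figure D1:**
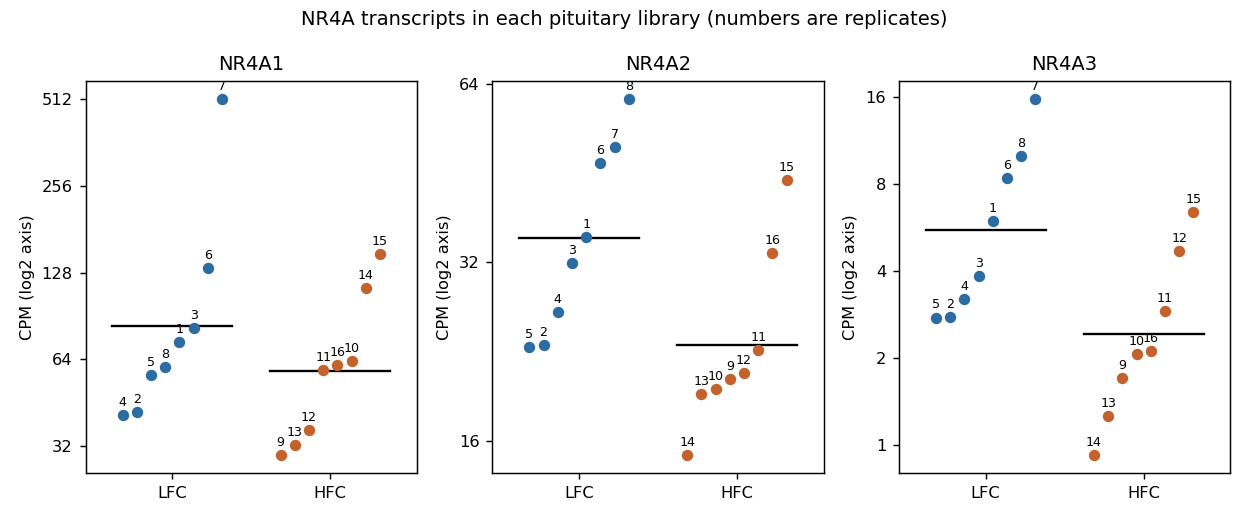
CPM of NR4A1, NR4A2 and NR4A3 (log2 axis, 1 panel per gene with its own range) in each LFC and HFC library, points being libraries numbered by replicate and lines the group means of log2 CPM. LFC replicate 7 stands at 511 CPM for NR4A1, and LFC replicates 6, 7 and 8 with HFC replicate 15 are the 4 highest libraries for NR4A2 and NR4A3.

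Libraries of a group differed more in NR4A1 and NR4A3 than in most genes. The biological coefficient of variation, the spread between libraries beyond counting error, was 70.0% for NR4A1 and 60.2% for NR4A3, higher than in 95.5% and 91.9% of the genes tested. For NR4A2 it was 35.1%, against a median of 30.4% over all genes. The highest library exceeded the lowest 17.1-fold for NR4A1, 17.1-fold for NR4A3 and 3.98-fold for NR4A2. For NR4A1 the spread leaned on LFC replicate 7, without which the LFC SD was 31.6 CPM in place of 159 CPM. With LFC replicate 5 and HFC replicate 14 left out, the log2 fold changes were -1.13 for NR4A1, -0.61 for NR4A2 and -1.24 for NR4A3. Both stood apart on the first component, but HFC replicate 13, which lay farther out than HFC replicate 14, was kept in this fit.

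**Figure D2:**
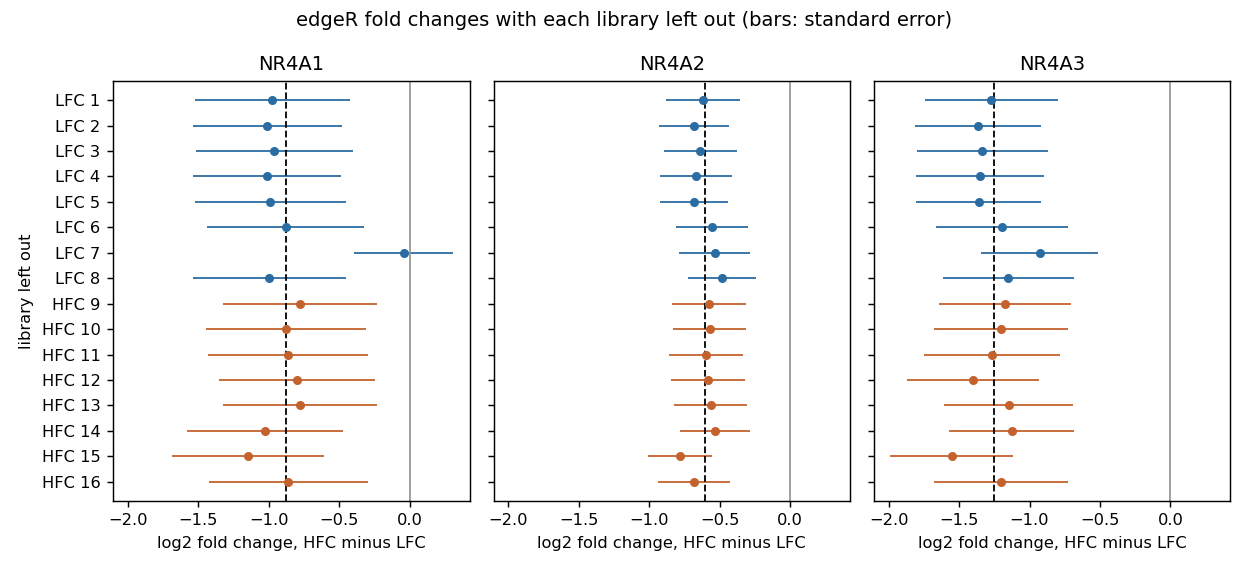
edgeR log2 fold change, HFC minus LFC, of each receptor after leaving out the library named on the vertical axis; points are estimates, bars are standard errors of the estimate, and the dashed line marks the value with all 16 libraries. NR4A1 moves to -0.04 without LFC replicate 7, whereas NR4A2 stays between -0.78 and -0.48 and NR4A3 between -1.55 and -0.93.

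Co-variation of the 3 receptors was measured on log2 CPM over the 16 libraries, with permutation p-values adjusted by Benjamini-Hochberg over the 6 pairs formed with POMC. NR4A2 and NR4A3 varied together from library to library (r = 0.884, permutation adjusted p = 0.00018; rho = 0.879). Taking out the group means left r at 0.834 (permutation adjusted p = 0.00066), and dropping the libraries farthest from the median of NR4A2, LFC replicates 7 and 8, left r at 0.831 (permutation adjusted p = 0.00156). Within LFC r was 0.938 (exact permutation adjusted p = 0.0064) and rho 0.976 (exact permutation adjusted p = 0.00238). Within HFC r was 0.717 (exact permutation adjusted p = 0.269) and rho 0.881 (exact permutation adjusted p = 0.0435). Of 14318 genes tested, NR4A3 had the highest r with NR4A2, and NR4A2 the highest with NR4A3. The log2 ratio of NR4A2 to NR4A3 had an SD of 0.62 over the libraries.

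NR4A1 followed the other receptors less closely. Its r was 0.562 with NR4A2 (permutation adjusted p = 0.0286; rho = 0.529, permutation adjusted p = 0.0551) and 0.595 with NR4A3 (permutation adjusted p = 0.0286; rho = 0.482, permutation adjusted p = 0.0723). Both rested on the libraries at the upper end of NR4A1: without LFC replicate 7 and HFC replicate 15 r was 0.354 with NR4A2 (permutation adjusted p = 0.319) and 0.261 with NR4A3 (permutation adjusted p = 0.411). Without LFC replicate 7 alone r was 0.458 and 0.359. HFC replicate 14 moved it the other way, having the lowest NR4A2 and NR4A3 levels beside the second highest NR4A1 level of HFC, and without it r was 0.712 and 0.773. Within LFC NR4A1 and NR4A3 had r = 0.802 (exact permutation adjusted p = 0.0285), and within HFC 0.224 (exact permutation adjusted p = 0.809). Whether the groups differ in this relation was not tested. NR4A3 ranked 10th among the genes by r with NR4A1, whereas NR4A1 ranked 179th for NR4A3 and 232nd for NR4A2.

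POMC (ENSSSCG00000021155, chr3:113661004-113670624) encodes the precursor of ACTH and of melanocyte-stimulating hormone and is the classical NR4A target of the gland. It was named by its position. Its interval overlaps EFR3B, and the libraries kept no strand, so reads of the shared stretch could belong to either gene. POMC ran from 5926 CPM through a median of 19896 to 77318 CPM in LFC, and from 22878 CPM through a median of 47497 to 243007 CPM in HFC. All 8 HFC libraries exceeded the LFC mean on the log2 scale, although the ranges overlapped. The direction was thus opposite to that of the receptors: edgeR gave a log2 fold change of 1.36 (SE 0.55; adjusted p = 0.753), and mean log2 CPM differed by 1.29 (exact permutation p = 0.0329). The p passed 0.05 in only 8 of the 16 sets of 15 libraries. It was highest without LFC replicate 6 (exact permutation p = 0.0698), and the difference was smallest, at 0.97, without HFC replicate 16 (exact permutation p = 0.0653). Without HFC replicate 16 the edgeR log2 fold change of POMC fell to 0.70 (SE 0.44, edgeR unadjusted p = 0.132).

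Over the 16 libraries NR4A3 and POMC were inversely related (r = -0.580, permutation adjusted p = 0.0286; rho = -0.712, permutation adjusted p = 0.00786). For NR4A2 and POMC r was -0.446 (permutation adjusted p = 0.0973) and rho -0.585 (permutation adjusted p = 0.0378), and for NR4A1 and POMC r was -0.269 (permutation adjusted p = 0.299). The groups also differed in mean on both axes. With the group means taken out, r of NR4A3 and POMC was -0.396 (permutation adjusted p = 0.192) and rho -0.456 (permutation adjusted p = 0.116). Within LFC r was -0.458 (exact permutation adjusted p = 0.307) and rho -0.667 (exact permutation adjusted p = 0.115). Within HFC r was -0.329 (exact permutation adjusted p = 0.809) and rho -0.381 (exact permutation adjusted p = 0.743). The inverse relation therefore kept its sign but did not pass the test within either group. For NR4A2 and POMC r was -0.580 within LFC and 0.162 within HFC, where rho had the other sign, at -0.214. For NR4A1 and POMC r was -0.343 within LFC and 0.105 within HFC, where rho was 0.095. Without HFC replicate 16, the library with the most POMC, r of NR4A2 and POMC was -0.651 (permutation adjusted p = 0.0253).

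**Figure D3:**
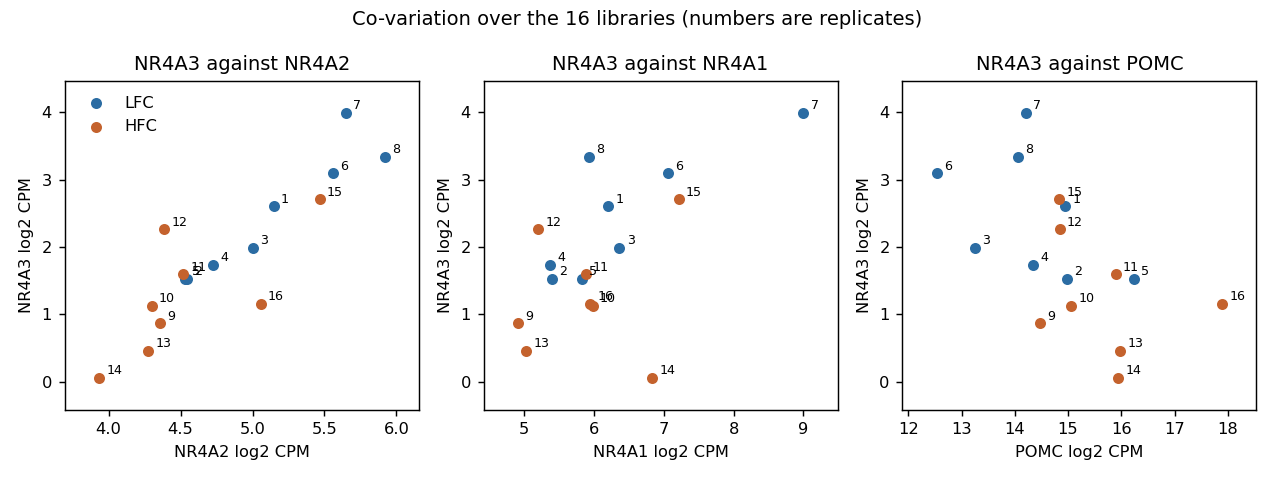
NR4A3 against NR4A2, NR4A1 and POMC, each axis in log2 CPM, with points for the 16 libraries numbered by replicate and coloured by group. NR4A3 follows NR4A2 (r = 0.884), and its relation to NR4A1 leans on LFC replicate 7. Its relation to POMC is inverse over all libraries (r = -0.580), within LFC (r = -0.458) and within HFC (r = -0.329). The groups also differ in mean on both axes, and neither within-group value passed the test.

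Of the regulators of POMC, 7 of 8 listed genes were tested and none was called. TBX19, the corticotroph and melanotroph factor that acts on the POMC promoter, was the nearest to the threshold with a log2 fold change of 0.62 (SE 0.25, unadjusted p = 0.0235), followed by POMC itself and NEUROD1 (log2 fold change -0.22). Without HFC replicate 16 the log2 fold change of TBX19 was 0.31. The median over the list was -0.02, against -0.01 over all genes tested. TBX19 had r = -0.369 with NR4A3 and -0.224 with NR4A2.

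NR4A receptors are induced together with other immediate early genes in many cells, and 29 such genes were listed, 26 of which were tested. EGR4 had no row by that name, and JUNB and EGR3 did not pass the filter. None was called. Unlike NR4A2 and NR4A3, 19 of the 26 had higher and 7 lower fitted values in HFC, with a median log2 fold change of 0.16. With the receptors left out, 6928 of all 14316 genes tested had higher values in HFC. Of all 14319 genes tested, 615 (4.29%) were higher at an unadjusted p under 0.05 in edgeR. The 3 of the 26 with an unadjusted p under 0.05 were higher in HFC: TRIB1, a pseudokinase (log2 fold change 0.61, edgeR adjusted p = 0.612), ATF3, a stress-induced factor (1.69, edgeR adjusted p = 0.838), and IER5 (0.32, edgeR adjusted p = 0.857). The ATF3 value rested on HFC replicate 14, at 24.6 CPM: its median was 1.14 CPM in LFC and 0.977 CPM in HFC, and without that library the log2 fold change was -0.13. The IER5 value was 0.24 without the same library (unadjusted p = 0.117), whereas TRIB1 kept an unadjusted p under 0.05 with each library left out.

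A minority of the immediate early genes moved with the receptors from library to library. The 4 of 26 with r of at least 0.5 with the mean of the 3 receptors were FOSL2 (0.740), FOSB (0.597), BTG2 (0.558) and EGR2 (0.522), beside 180 of 14316 genes (1.26%) in the whole table. None had r of -0.5 or lower with that mean, beside 172 genes (1.20%). FOSL2, a subunit of the AP-1 factor, had the highest r of all named genes with that mean. FOS, the classical member of the class, had r = -0.141 with NR4A2 and -0.151 with NR4A3, but 0.132 and 0.151 once the group means were taken out. FOS ran from 24.2 to 144 CPM in LFC and from 37.8 to 113 CPM in HFC, and its highest library was LFC replicate 3, which was not among the 4 highest for any receptor. EGR1 had r = 0.315 with NR4A2 and 0.361 with NR4A3, and CCN1, a matrix protein, r = -0.574 and -0.635. With the group means taken out, a comparison added after the data were seen, 7 of the 26 genes had r of at least 0.5 with NR4A3, beside 5.28% of all genes. They were EGR2 (0.849), FOSL2 (0.743), FOSB (0.722), BTG2 (0.697), ARC (0.591), JUND (0.519) and EGR1 (0.509). None of the 26 genes had its highest value in LFC replicate 7, where NR4A1 and NR4A3 peaked, and 5 had it in LFC replicate 8 (FOSB, FOSL2, EGR1, EGR2 and ARC). Over all genes tested 1.77% peaked in LFC replicate 7 and 11.8% in LFC replicate 8.

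The 9 listed targets of CREB, the factor through which cAMP switches on NR4A transcription, were all tested and none was called. Their median log2 fold change was -0.17, with 5 lower and 4 higher in HFC. SIK1, a kinase that restrains CREB coactivators, ran from 19.0 through a median of 52.5 to 101 CPM in LFC and from 7.56 through a median of 22.5 to 57.0 CPM in HFC. SIK1 peaked in LFC replicate 7 like NR4A1 and NR4A3, and the groups overlapped. Its log2 fold change was -0.97 (SE 0.43, unadjusted p = 0.0392, edgeR adjusted p = 0.832). Without LFC replicate 7 it was -0.77 (edgeR unadjusted p = 0.0944). Only 7 of the 16 fits with a library left out kept an unadjusted p under 0.05 for SIK1. SIK1 had r = 0.778 with NR4A3, 0.615 with NR4A2 and 0.507 with NR4A1, and within the groups r with NR4A3 was 0.603 in LFC and 0.787 in HFC. CREM, whose short product ICER represses cAMP-driven genes, had a log2 fold change of -0.53 (SE 0.21, unadjusted p = 0.0232, edgeR adjusted p = 0.749) and r = 0.664 with NR4A3. Its log2 fold change was -0.39 without LFC replicate 8 (edgeR unadjusted p = 0.0612), and 14 of the 16 fits kept an unadjusted p under 0.05. PPARGC1A, a coactivator of energy metabolism, had a log2 fold change of -0.40 (edgeR adjusted p = 0.909) and r = 0.501 with NR4A3. FOS, which is also on this list, had the highest log2 fold change of the 9 (0.49, SE 0.34, unadjusted p = 0.163 in edgeR), and 0.89 without LFC replicate 3, where its highest level lay. DUSP1, PDE4B, PDE4D, PER1 and NFIL3 lay between -0.22 and 0.22. In all, 3 of the 9 had r of at least 0.5 with NR4A3, beside 663 of 14316 genes (4.63%), and 2 of the 9, SIK1 (0.695) and CREM (0.535), with the group means taken out.

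**Figure D4:**
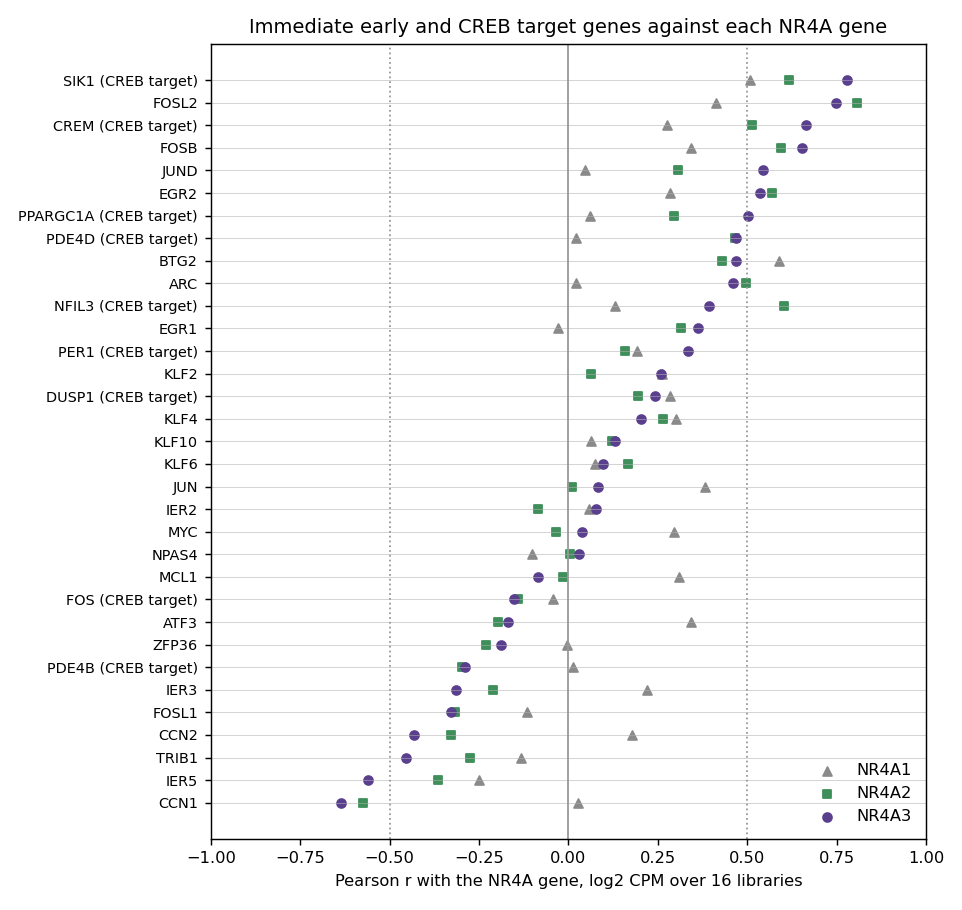
Pearson r over 16 libraries of each immediate early and CREB target gene with NR4A1 (triangles), NR4A2 (squares) and NR4A3 (circles), ordered by r with NR4A3; dotted lines mark r of -0.5 and 0.5. SIK1, FOSL2, CREM and FOSB are at the upper end, and FOS lies below 0 for all 3 receptors.

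The genes upstream of the receptors showed no called difference either. The 25 genes of the cAMP and CREB pathway had a median log2 fold change of 0.00, with 13 higher and 12 lower and none at an unadjusted p under 0.05. The lowest p-values belonged to the adenylyl cyclases ADCY9 (log2 fold change 0.29, unadjusted p = 0.0553) and ADCY3 (-0.40, unadjusted p = 0.0590) and to the CREB-restraining kinase SIK2 (-0.54, unadjusted p = 0.112). Without LFC replicate 8 the SIK2 value was -0.30. SIK2 had r = 0.645 with NR4A3 and 0.566 with NR4A2. On the calcium route, through which MEF2 factors released from class II histone deacetylases act on the NR4A1 promoter in other cells, 17 of 17 genes were tested with a median log2 fold change of 0.04. CAMK4, a calcium-dependent kinase, was the only one at an unadjusted p under 0.05 (log2 fold change -0.82, SE 0.32, unadjusted p = 0.0194, edgeR adjusted p = 0.728) and had r = 0.547 with NR4A3, or 0.337 with the group means taken out. MEF2A (log2 fold change 0.33) and HDAC7 (0.28) followed.

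The 10 partners and coregulators were all tested, none was called and none had an unadjusted p under 0.05, the median log2 fold change being -0.11. Of the retinoid X receptors the log2 fold change was -0.44 for RXRG (SE 0.27) and 0.41 for RXRA (SE 0.27), the latter being 0.08 without HFC replicate 14 and the former -0.29 without HFC replicate 16. RXRA had r = -0.586 with NR4A2 and -0.566 with NR4A3, and RXRB r = -0.543 and -0.536. RXRG had r = 0.315 with NR4A3, and the coactivators NCOA1 and NCOA3 had r = 0.589 and 0.502. NR3C1, the glucocorticoid receptor that opposes NR4A action on POMC, had a log2 fold change of -0.18 and r = 0.475 with NR4A2.

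The genes most like each receptor over the 16 libraries, by Pearson r of log2 CPM and with the family left out, are given as a description. Far fewer genes had r of at least 0.5 with NR4A1 than with its relatives. They numbered 55 of 14316 genes (0.384%) for NR4A1, 608 (4.25%) for NR4A2 and 663 for NR4A3. At the other end 57 genes (0.398%) had r of -0.5 or lower with NR4A1, 481 with NR4A2 and 596 with NR4A3. The NR4A1 counts include LFC replicate 7, which lay far above the other libraries, and are not given without it. For NR4A3 the leading genes were GPR3 (0.825), a receptor that raises cAMP without a ligand, CSRNP1 (0.798), FAM222A (0.787), FBXO33 (0.785) and JOSD1 (0.783). GPR3 itself ran from 0.882 through a median of 1.76 to 7.05 CPM in LFC and from 0.205 through a median of 0.812 to 1.95 CPM in HFC, with a log2 fold change of -1.41 (SE 0.48, unadjusted p = 0.0094, edgeR adjusted p = 0.629). Without LFC replicate 8, its highest library, the log2 fold change was -0.93 (unadjusted p = 0.0377). Its lowest library was HFC replicate 14, which was also lowest for NR4A2 and NR4A3. GPR3 was picked for its r with NR4A3 over these same libraries, and NR4A3 was itself lower in HFC. The group difference of GPR3, its p-values and its shared lowest library are therefore no separate support. For NR4A2 the leading genes were FOSL2 (0.808), the glucose transporter SLC2A3 (0.802), FAM46A (0.762), RNF41 (0.757) and CAB39L (0.754). FOSL2 kept r with NR4A2 within each group, at 0.856 in LFC and 0.767 in HFC. The lowest r belonged to SHD for NR4A2 (-0.741) and to PRRT2 for NR4A3 (-0.779).

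For NR4A1 the leading genes were different ones, PLPPR1 (0.650), the laminin chain LAMC3 (0.634), the adrenergic receptor ADRA2B (0.634), ANKRD6 (0.624) and the endothelial factor ERG (0.611). LFC replicate 7 carried part of these values: without it r of LAMC3 was 0.259, whereas that of PLPPR1 was 0.681 and that of ADRA2B 0.694. The lowest r with NR4A1, -0.692 for NPHS1, was 0.018 without that library. PLPPR1 and ADRA2B were low, at 0.430 to 1.81 CPM and 0.789 to 4.47 CPM. With the mean of all 3 receptors the highest r belonged to FOSL2 (0.740), JOSD1 (0.735), HNRNPA1L2 (0.723), CAB39L (0.722), JAKMIP2 (0.715), SIK1 (0.714), SLC2A3 (0.691), GPR3 (0.686), NSUN7 (0.686) and KBTBD6 (0.665). The HNRNPA1L2 row may hold reads of near-identical HNRNPA1 copies.

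Markers of the cells of the gland were set beside the receptors. No tested marker in any of the 13 marker lists had r of at least 0.5 with the mean of the receptors. All 4 melanotroph markers had higher fitted values in HFC, led by PCSK2 at 2.47 to 27.3 CPM in LFC and 2.66 to 2595 CPM in HFC (log2 fold change 5.34, unadjusted p = 0.00063, edgeR adjusted p = 0.612). PAX7, the defining factor of the melanotroph, ran from 0 to 3.13 CPM in LFC and from 0.676 to 333 CPM in HFC. The highest value of both belonged to HFC replicate 16. Without it the HFC mean was 92.3 CPM for PCSK2 and 8.90 CPM for PAX7, in place of 405 and 49.4 CPM, and the log2 fold changes were 3.21 and 2.86. PCSK2 had r = -0.007 with NR4A2 and -0.212 with NR4A3 over all libraries. Within the groups r was 0.420 in LFC and 0.461 in HFC with NR4A2, and 0.544 and 0.011 with NR4A3. The part of intermediate lobe cells in the levels of POMC and the receptors was not tested.

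Microglia and macrophage markers ran against NR4A2 and NR4A3. Of the 8 markers 6 had r of -0.5 or lower with NR4A3 and 5 with NR4A2, beside 4.16% and 3.36% of all genes. With the group means taken out 4 of the 8 had such an r with NR4A3 and 4 with NR4A2, beside 4.01% and 4.95%. The complement genes C1QA, C1QB and C1QC had r between -0.609 and -0.544 with NR4A3, and TYROBP -0.600. The 8 markers were present in every library, with a summed level of 117 to 684 CPM in LFC and 196 to 479 CPM in HFC, and 7 of the 8 had higher fitted values in HFC (median log2 fold change 0.34). CX3CR1, a receptor of resting microglia, ran from 1.33 to 4.89 CPM in LFC and from 1.70 to 24.1 CPM in HFC (log2 fold change 1.51, edgeR adjusted p = 0.612), the log2 fold change being 1.002 without HFC replicate 16. NR4A1 did not share this, with a median r of -0.06 over the 8 markers. The part of these cells in the NR4A2 and NR4A3 values was not tested. Pituicyte and glia markers, of the posterior lobe, had higher fitted values in HFC for 5 of 6 genes, with summed levels of 24.4 to 82.3 CPM in LFC and 21.4 to 281 CPM in HFC and a median r of -0.30 with NR4A3.

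PRL, the lactotroph hormone, was lower in HFC in the fit (log2 fold change -1.86, SE 0.71, unadjusted p = 0.0186, edgeR adjusted p = 0.719), at 6639 to 81061 CPM in LFC and 276 to 31747 CPM in HFC, and had r = 0.465 with NR4A3 over all libraries. Within the groups r of PRL and NR4A3 was -0.132 in LFC and 0.351 in HFC. Fibroblast markers had a median r of 0.48 with NR4A1 and -0.10 with NR4A3. Of 6 such markers 2 had r of at least 0.5 with NR4A1, and 5 with the group means taken out, beside 0.629% of all genes. These values include LFC replicate 7, which lay far above the other libraries in NR4A1, and are not given without it. The part of these cells in the NR4A1 values was not tested. For corticotrophs, somatotrophs, gonadotrophs, thyrotrophs, endothelium, smooth muscle, T cells and erythrocytes the median r with NR4A3 lay between -0.32 and 0.30, and no marker was called.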

How the data were processed

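The authors cleaned the reads with Flexbar, aligned them to Sscrofa11.1 with Ensembl gene models (STAR and RSEM; methods also name Bowtie 2) and deposited whole-number counts per gene, not normalised, 1 column per library. The TruSeq kit keeps no strand. A second deposited table of the authors' comparison (group means, fold changes and p-values) was used only for names and positions; 304 genes were named by position. Of 25880 genes 6308 had no count. No transcript lengths were used, so levels are not compared between genes.

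The comparison of the groups used edgeR 4.0.16 under R 4.3.3 (glmQLFit, glmQLFTest, TMM scaling, filterByExpr, all 16 libraries, no covariate) with Benjamini-Hochberg adjustment over all genes tested, tested on simulated data first. Log2 CPM used a prior count of 2. Single genes were compared by exact permutation over 12870 assignments and correlations by permutation (scipy 1.17.1; 100000 resamples over 16 libraries, exact within 8). Correlations of lists and of most similar genes carry no test.

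The receptors, lists and tests were chosen with earlier results of these data known. Named genes were the receptors and POMC, of each pathway list the 3 with the smallest p, and the genes with the 5 highest and the lowest r per receptor and the 10 highest with their mean. Other genes, such as FOS, EGR1, FOSB, CCN1, BTG2, RXRB and single markers, were named after their values were seen. Chi-square per degree of freedom between libraries of a group was 27.1 or more in 56 pairs, so none was taken as a duplicate. Alternatives were DESeq2 1.42.0, limma 3.58.1 voom, other scalings and filters, sva 3.50.0 and leaving out libraries.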

Additional observations from a re-analysis of the deposited data

Results flagged for a closer look

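In each group of 8, the highest and lowest library of 10 measures was checked for a gap from the rest (Dixon's test at 95%), which chance passes in about 1 of 20 groups, and 7 of 20 checks passed. LFC replicate 7 had an NR4A1 log2 CPM of 8.999, the other LFC libraries lying between 5.36 and 7.05. HFC replicate 16 had a POMC log2 CPM of 17.89, against 14.48 to 15.98 in the other HFC libraries.

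The other flags were on means over pathway lists in libraries that stood apart on the first principal component. The mean log2 CPM of the cAMP and CREB pathway was 4.02 in LFC replicate 5 (others 5.09 to 5.32) and 4.32 in HFC replicate 13 (others 4.89 to 5.32). That of the calcium and MEF2 route was 4.17 in LFC replicate 5 (others 4.77 to 5.13) and 4.29 in HFC replicate 13 (others 4.74 to 5.07). That of the partners and coregulators was 5.64 in LFC replicate 5 (others 5.91 to 6.09). NR4A2 and NR4A3 had no such library in either group.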

How the results depend on the processing

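No paired analysis was possible because the groups share no replicate numbers. No receptor was called in any alternative run, the lowest edgeR, DESeq2 or voom adjusted p being 0.315, and the fold changes of the receptors kept their sign in each. The genes called numbered 20 with DESeq2 and 18 without its replacement of outlying counts, an alternative chosen after seeing the data, and 0 with each library left out. DESeq2 replaced the 11611 NR4A1 counts of LFC replicate 7 by 1490, giving a log2 fold change of -0.03, and -0.88 without the replacement. NR4A3 had no value with at least 10 counts in every library.

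Leaving out each library, edgeR log2 fold changes ran from -1.15 to -0.04 for NR4A1, -0.78 to -0.48 for NR4A2 and -1.55 to -0.93 for NR4A3. Differences in mean log2 CPM ran from -0.71 to -0.15, -0.73 to -0.49 and -1.40 to -0.98. For NR4A2 the difference was -0.60 with scaling by total counts (exact permutation p = 0.0527). Leaving out each library, r ran from 0.458 (without LFC replicate 7) to 0.712 for NR4A1 and NR4A2, 0.359 (without LFC replicate 7) to 0.773 for NR4A1 and NR4A3, 0.858 to 0.928 for NR4A2 and NR4A3, -0.320 to -0.175 for NR4A1 and POMC, -0.651 to -0.341 for NR4A2 and POMC, and -0.629 to -0.519 for NR4A3 and POMC.

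About the group means r was 0.517 for NR4A1 and NR4A2 (permutation adjusted p = 0.0723), 0.564 for NR4A1 and NR4A3 (permutation adjusted p = 0.0593) and -0.396 for NR4A3 and POMC. For NR4A1 and NR4A2 it was 0.713 without LFC replicate 5 and HFC replicate 14, 0.593 within LFC, 0.413 within HFC and 0.354 without the 2 farthest libraries, and for NR4A1 and NR4A3 0.224 within HFC and 0.261 without the 2 farthest. For NR4A2 and NR4A3 it was 0.717 within HFC. For NR4A3 and POMC it was -0.458 within LFC, -0.329 within HFC, -0.572 without the 2 farthest and -0.548 without LFC replicate 5 and HFC replicate 14. For NR4A2 and POMC it was -0.530 with total counts and 0.162 within HFC, and for NR4A1 and POMC 0.105 within HFC. The cause was not tested. NR4A3 had the lowest counts of the receptors.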
